A study of Mus musculus with 12 samples.

Results

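Abca1, Slc44a1, Pon2, Nsmaf and Laptm4b are 5 genes that handle sterol, choline, lactones and sphingolipids, out of 56923 rows in the deposited table. They were picked by name from the 4 regions of the GRCm38 genome where row levels were taken to follow the exons of the genes named. The check given below did not bear this out around Slc44a1. One region spans 3.1 to 41.0 Mb of chromosome 4 and another 45.1 to 55.5 Mb of it, with the rest at 3.1 to 23.2 Mb of chromosome 6 and 8.9 to 36.7 Mb of chromosome 15. Together they hold 1083 rows, of which 348 were tested, and all 5 genes were among those tested. The values that placed the regions are mean levels over all libraries, and Abca1 was included with its lower values in L-fucose already known. Its difference between the groups is therefore given as a description and supports nothing by itself.

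The libraries were made from poly-A RNA of brain sections of wild-type mice. The control group spent 5 hours in aCSF, a salt solution that stands in for the fluid bathing the brain, and the treated group 5 hours in aCSF containing L-fucose, a sugar found at the ends of many glycan chains. Each group had 6 libraries. The sources used here do not give strain, sex, age, brain region, L-fucose concentration or number of animals, so p-values measure only the spread between these libraries, which may be technical.

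Cholesterol in the brain is made within the brain and is passed from glia to neurons on apolipoprotein particles. ABCA1 is the membrane pump that loads cholesterol and phospholipid onto lipid-poor apolipoprotein E, and its gene is a classical target of the liver X receptors, which sense oxidised sterols. The other 4 proteins act on different lipids. SLC44A1 carries choline into cells for phosphatidylcholine, PON2 is an intracellular lactonase that limits lipid oxidation, NSMAF couples the tumour necrosis factor receptor to neutral sphingomyelinase, which releases ceramide, and LAPTM4B is a membrane protein of late endosomes and lysosomes that binds ceramide.

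The 250 bases before the start of transcription were taken from RefSeq (GRCm38.p6) for the 3 of 5 genes matched there, Abca1, Slc44a1 and Pon2. They are shown because Abca1 and Slc44a1 are neighbours on chromosome 4 whose values are set side by side below, and because the liver X receptor element is the best known control sequence of Abca1. Capitals mark motif matches on either strand. The motifs were the E-box CACGTG, the GC box written GGGCGG, the TATA box written TATAAA, and a pair of liver X receptor repeats with 4 bases between their parts. The ideal repeat has AGGTCA on both sides of the gap. The other was based on the repeat described in the human ABCA1 promoter and was chosen with the Abca1 sequence in view. It was searched as TGACCG and TAACC, so its second part is shorter than that of the ideal repeat.
Abca1 promoter, chr4:53159896-53160145, minus strand: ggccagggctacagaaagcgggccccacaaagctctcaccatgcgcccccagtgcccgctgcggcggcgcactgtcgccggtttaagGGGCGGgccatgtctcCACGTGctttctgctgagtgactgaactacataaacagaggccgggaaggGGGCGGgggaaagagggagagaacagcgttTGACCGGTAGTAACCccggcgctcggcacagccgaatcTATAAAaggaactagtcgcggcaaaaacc
Slc44a1 promoter, chr4:53440163-53440412, plus strand: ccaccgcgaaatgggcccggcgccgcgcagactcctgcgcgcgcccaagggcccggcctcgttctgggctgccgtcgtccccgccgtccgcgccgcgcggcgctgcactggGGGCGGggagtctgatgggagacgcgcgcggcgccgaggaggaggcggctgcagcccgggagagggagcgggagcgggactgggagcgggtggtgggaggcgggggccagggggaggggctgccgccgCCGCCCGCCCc
Pon2 promoter, chr6:5298341-5298590, minus strand: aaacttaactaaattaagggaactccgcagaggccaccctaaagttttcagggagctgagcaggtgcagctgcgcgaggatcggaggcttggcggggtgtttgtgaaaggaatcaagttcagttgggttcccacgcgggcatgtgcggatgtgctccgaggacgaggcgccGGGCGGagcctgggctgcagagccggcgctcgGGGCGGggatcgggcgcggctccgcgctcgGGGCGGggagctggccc
The Abca1 window held the human-type repeat, as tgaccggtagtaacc, from 67 to 53 bases before the start, an E-box from 147 to 142, GC boxes from 163 to 158 and from 97 to 92, and a TATA box from 29 to 24. Of 32851 windows of the same length, 0.0122% held the human-type repeat, 0.0152% the ideal repeat, 6.02% the E-box, 12.4% the TATA box and 32.7% a GC box. The Slc44a1 window held 3 GC boxes, of which the last pair overlap, and the Pon2 window held 3, with no match to the other motifs. The RefSeq start of Pon2 lies inside the counted Pon2 row, which runs to 5298455. Part of the Pon2 window, with its 3 GC boxes, is therefore within that row. GC content was 61.6% in Abca1, 81.2% in Slc44a1 and 65.6% in Pon2, against a median of 52.4% over all windows. A match says only that these letters are present.

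Library totals ran from 9191687 to 18563078 reads with a median of 11168285. Values below are normalized reads, meaning reads after correction for depth by 1 factor per library. The aCSF 5 and aCSF 6 libraries were unlike the others, with 41.9% and 44.8% of counted reads on the mitochondrial genome against 27.6 to 40.5% elsewhere, and with scores of 82.5 and 57.5 on the first principal component against -32.2 to 21.7. They also had fewer rows above 0, at 14340 and 14856 against 16514 to 19014 in the others. Fold changes of the 5 genes and the other listed lipid genes, and the marker sums, are given below without both libraries too. Ranges and ratios without them are given for some genes only.

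Because many rows of the table do not hold the level their names call for, the place of each of the 5 rows was checked. Over the 74 to 81 rows nearest each gene, row level was correlated with how much of the row fell on protein-coding exons once its position was displaced by up to 600 kb. The undisplaced position gave the highest correlation around Pon2 (0.822), Nsmaf (0.768), Laptm4b (0.708) and Abca1 (0.664). Beyond 1000 bases of displacement the highest was 0.609 around Pon2, 0.599 around Nsmaf and 0.571 around Laptm4b. For Abca1 it was 0.614, at -64500 bases, which is close to the undisplaced value. Around Slc44a1 the undisplaced position gave 0.622, below 0.689 at a displacement of -8000 bases. Rows adjoining Abca1 and Slc44a1 included 6 named for olfactory receptors, with mean levels of at most 0.137, and 18 pseudogene rows of at most 4.69, beside Rad23b, a DNA repair factor, at 8340. These correlations rest on the measure that placed the regions and are a description of it.

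**Figure D1:**
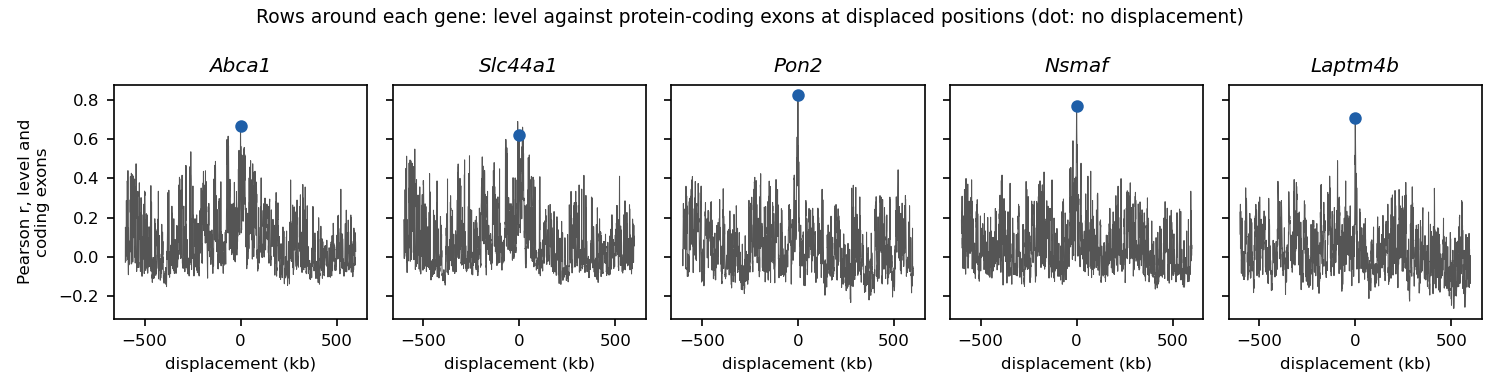
Pearson correlation between row level (log2 of the mean over 12 libraries plus 1) and the share of each row's exonic bases that falls on protein-coding exons, against the displacement of the rows in kb, for the rows around each gene. The dot marks no displacement, which is the highest point in 4 of the 5 panels and for Slc44a1 is lower than the point at a displacement of -8000 bases.

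Abca1, the cholesterol pump, had values of 924.7, 993.9, 1169, 1157, 1419 and 1202 normalized reads in aCSF 1 to 6. In L-fucose 1 to 6 it had 904.2, 756.0, 871.3, 641.0, 881.6 and 848.6. Every L-fucose library lay below every aCSF library, with the narrowest gap between L-fucose 1 and aCSF 1. The aCSF libraries averaged 1144 ± 173.5 and the L-fucose libraries 817.1 ± 100.4 (SD, n = 6 each). The log2 fold change, L-fucose minus aCSF, was -0.48 with a standard error of 0.117 and a 95% interval from -0.73 to -0.24, or a difference of -28.4%.

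Abca1 did not pass the test across the whole table, with a limma adjusted p of 0.498 (Benjamini-Hochberg over 10787 rows). At the adjusted threshold of 0.05, 0% of rows were called, and at an unadjusted p under 0.05, 2.79% of rows were lower in L-fucose and 3.17% higher. Among rows of the 4 regions 6.9% were lower at that p. DESeq2 called 0.00344% of 29080 rows, and Abca1 was not among them. Groups without overlap and lower in L-fucose occurred in 15 of 10787 rows, or 0.139%, and those higher in L-fucose in 16, or 0.148%. In the 4 regions 2 rows of 348, or 0.575%, were of the lower kind, Abca1 and the GABA receptor gene Gabrr2. In tissue of many cell types, fewer cells that transcribe Abca1 and less Abca1 RNA per cell cannot be told apart.

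The Abca1 row (ENSMUSG00000015243) covers chromosome 4 from 53030787 to 53159895 on the minus strand, in GRCm38. Its 10363 exonic bases lie in 50 blocks and share 0% with exons of other genes. It was counted from 544 reads in L-fucose 4 to 1265 in aCSF 5, so that counting alone gives an error of 4.29% in the library with the fewest reads. The spread between libraries was larger, at 15.2% of the mean in aCSF and 12.3% in L-fucose.

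The groups stayed apart under the 3 library scalings run, but not when Abca1 was taken relative to the other genes. With TMM factors Abca1 ran from 56.8 to 80.6 CPM in L-fucose and from 82.6 to 127 in aCSF. With totals of non-mitochondrial reads it ran from 615 to 950 and from 983 to 1400. Per 100 reads of Slc44a1, the choline transporter gene beside it, there were 17.8 to 26.9 reads of Abca1 in L-fucose and 22.3 to 36.4 in aCSF, and these ranges overlap. With aCSF 5 and 6 left out the upper aCSF end of this ratio was 32.1, and the ranges still overlapped. Relative to the sum of the other 4 genes, Abca1 stood at 62.0 to 80.6% of the aCSF mean in L-fucose and at 76.2 to 123% in aCSF.

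**Figure D2:**
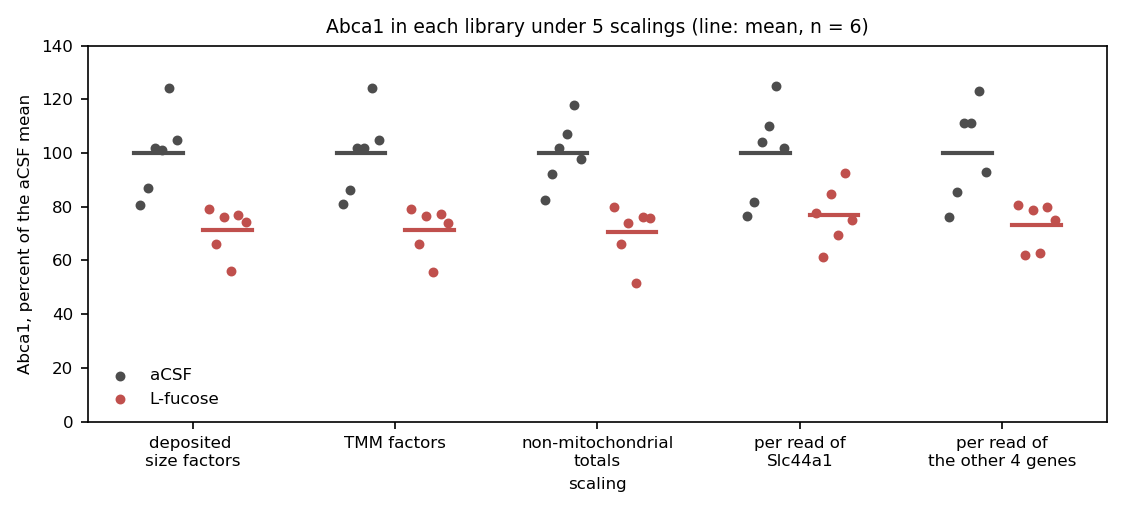
Abca1 in each library as a percentage of the aCSF mean (y axis) under 3 library scalings and as a ratio to Slc44a1 or to the sum of the other 4 genes (x axis), with aCSF in grey and L-fucose in red and lines at the means of 6. The groups are apart in the 3 library scalings and overlap in both ratios.

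Leaving out aCSF 5 and aCSF 6, which held the highest and second highest Abca1 values, gave an aCSF range of 924.7 to 1169, still above the L-fucose libraries. The log2 fold change was then -0.38 (limma adjusted p 0.312). Over the 12 fits that each left out 1 library it lay between -0.54 and -0.41, negative in every one. DESeq2 gave Abca1 an adjusted p of 0.191 and edgeR 0.620.

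Marker genes of cell types in the same regions are given beside Abca1, as summed levels per library. The markers were chosen with earlier results of these data known, so their values are a description. The 4 markers of ependyma, the ciliated lining of the ventricles, were Spef2, Cfap206, Capsl and Dnah5. They summed to 212.9 to 339.0 in L-fucose and to 382.8 to 559.8 in aCSF, without overlap, though the groups overlapped for each marker alone. Without aCSF 5 and 6 the upper aCSF end of this sum was 506.2 and the groups still did not overlap. All 4 ependymal markers had negative fold changes with an unadjusted limma p under 0.05. At that p, 2.79% of all tested rows and 6.9% of those in the 4 regions were lower in L-fucose. The 2 markers of astrocytes and oligodendrocyte precursors summed to 6215 to 7779 in L-fucose and 7133 to 10290 in aCSF, or 7133 to 8125 without aCSF 5 and 6. Both were negative, and Ptprz1 had an unadjusted p of 0.00402. Neuronal markers (3 genes, 1 of them negative) summed to 33300 to 37450 in L-fucose and 33390 to 36880 in aCSF, or 33390 to 35590 without aCSF 5 and 6. They were Basp1, Gabbr2 and Grin3a, with means of 23320, 10730 and 1203 over the 12 libraries, so Grin3a adds little to this sum.

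The 3 microglial markers were Lyn, Il7r and Tfec, with means of 409.9, 14.7 and 3.326 over the 12 libraries, so their sum is mostly Lyn. That sum ran from 279.0 to 507.5 in L-fucose and from 378.7 to 567.4 in aCSF. Lyn and Il7r, the 2 tested, were both negative, with intervals that included 0. The 3 endothelial markers, all negative, summed to 1920 to 2695 in L-fucose and 2187 to 3045 in aCSF. Without aCSF 5 and 6 the endothelial sum in aCSF ended at 2446, within the L-fucose range. Of these 3 markers, Cav1 and Cav2 are also among the lipid genes described below, and Cav1 turned to 0.04 without aCSF 5 and 6. Fibroblast markers (3 genes, 1 of 2 tested negative) summed to 778.2 to 961.5 and 706.1 to 1202, and the single choroid plexus marker, also negative, ran from 104.4 to 374.0 and 169.2 to 581.9. The ranges of these last lists and of microglia were the same without aCSF 5 and 6. None of these markers was at 0 in all libraries and none passed limma after adjustment. The part of these cell types in the Abca1 values was not tested.

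Slc44a1 encodes the widely expressed choline transporter that feeds the synthesis of phosphatidylcholine. Its values were 4148, 4183, 3854, 3609, 3903 and 4072 in aCSF 1 to 6 and 4018, 4240, 3542, 3178, 3280 and 3901 in L-fucose 1 to 6. L-fucose 2 was the highest of all 12 libraries and L-fucose 4 the lowest, so the L-fucose range enclosed that of aCSF. The aCSF libraries averaged 3961 ± 216.8 and the L-fucose libraries 3693 ± 425.6 (SD, n = 6 each). The log2 fold change was -0.11 with a 95% interval from -0.29 to 0.08 (limma adjusted p 0.888). Its interval overlaps that of Abca1, and the difference between the genes was not tested. Leaving out aCSF 5 and 6 gave -0.10.

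The Slc44a1 row (ENSMUSG00000028412) lies on chromosome 4 from 53440413 to 53622478 on the plus strand, with 19 exon blocks and 6945 exonic bases. Of these bases, 4.46% are shared with 1700060J05Rik on the other strand, whose reads cannot be told apart where strand was not used in counting. Slc44a1 had the smallest spread of the 5 genes in aCSF, at 5.47% of its mean.

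Pon2 encodes a lactonase of the endoplasmic reticulum and mitochondria. It had 3070, 2627, 2469, 2418, 2925 and 3404 normalized reads in aCSF 1 to 6 and 2588, 2898, 3083, 2730, 3180 and 2793 in L-fucose 1 to 6. The L-fucose range lay within the aCSF range, whose extremes were aCSF 4 and aCSF 6. L-fucose averaged 2879 ± 222.3 and aCSF 2819 ± 383.6 (SD, n = 6 each), and the log2 fold change was 0.04 with an interval from -0.16 to 0.24 (limma adjusted p 0.969). Without aCSF 4 it was -0.0043 and without aCSF 5 and 6 it was 0.12, none of them called. The row (ENSMUSG00000032667) lies on chromosome 6 from 5264147 to 5298455 on the minus strand, and 9.27% of its 7339 exonic bases are shared with Gm44424 on the other strand.

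The other paraoxonases, Pon1 and Pon3, travel on high-density lipoprotein in blood and are made mainly in liver. Pon1 had 0 to 39.72 normalized reads in aCSF and 6.2 to 18.09 in L-fucose, and Pon3 had 30.22 to 119.2 and 31.00 to 56.56, so both were far below Pon2. Per kb of exon and over the 12 libraries, mean levels were 388.2 for Pon2, 17.86 for Pon3 and 4.061 for Pon1. Pon1 had a log2 fold change of 1.18 in limma and 0.187 in edgeR. The interval in limma ran from -0.59 to 2.96 for Pon1 and from -1.12 to 0.20 for Pon3. Pon3 was at -0.46, or -0.48 with aCSF 5 and 6 left out, where Pon1 did not reach the filter.

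Nsmaf encodes the adaptor that links the tumour necrosis factor receptor to neutral sphingomyelinase. Its values were 858.2, 1012, 729.3, 810.9, 603.5 and 484.5 in aCSF 1 to 6, and 742.0, 829.6, 686.1, 540.9, 640.1 and 805.9 in L-fucose 1 to 6. aCSF 6 was the lowest library and aCSF 2 the highest, and the groups overlap throughout. The aCSF libraries averaged 749.8 ± 187.9 and the L-fucose libraries 707.4 ± 108.2 (SD, n = 6 each). The log2 fold change was -0.06 with an interval from -0.38 to 0.27 (limma adjusted p 0.970), which also overlaps the interval of Abca1.

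aCSF 5 and aCSF 6 were the lowest aCSF libraries for Nsmaf, the opposite of their place for Abca1. Without them the aCSF range was 729.3 to 1012 and the Nsmaf log2 fold change -0.27 (limma adjusted p 0.441). Leaving out single libraries moved it between -0.18, without aCSF 6, and 0.036, without aCSF 2. The row (ENSMUSG00000028245) covers chromosome 4 from 6396207 to 6454271 on the minus strand, with 31 exon blocks. It shares 0.932% of its 8368 exonic bases with Sdcbp on the other strand.

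Laptm4b encodes the lysosomal membrane protein that binds ceramide. It had 2829, 2648, 2448, 2504, 2904 and 3646 normalized reads in aCSF 1 to 6 and 2734, 2997, 2641, 2735, 2804 and 2656 in L-fucose 1 to 6. aCSF 6 was the highest of the 12 libraries, and the L-fucose libraries lay close together inside the aCSF range, with a spread of 4.70% of their mean. L-fucose averaged 2761 ± 129.8 and aCSF 2830 ± 437.4 (SD, n = 6 each). The log2 fold change was -0.02 with an interval from -0.22 to 0.18 (limma adjusted p 0.978), and it was 0.084 without aCSF 5 and 6. The row (ENSMUSG00000022257) lies on chromosome 15 from 34238028 to 34284302 on the plus strand, and its 1938 exonic bases share 0% with other genes.

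**Figure D3:**
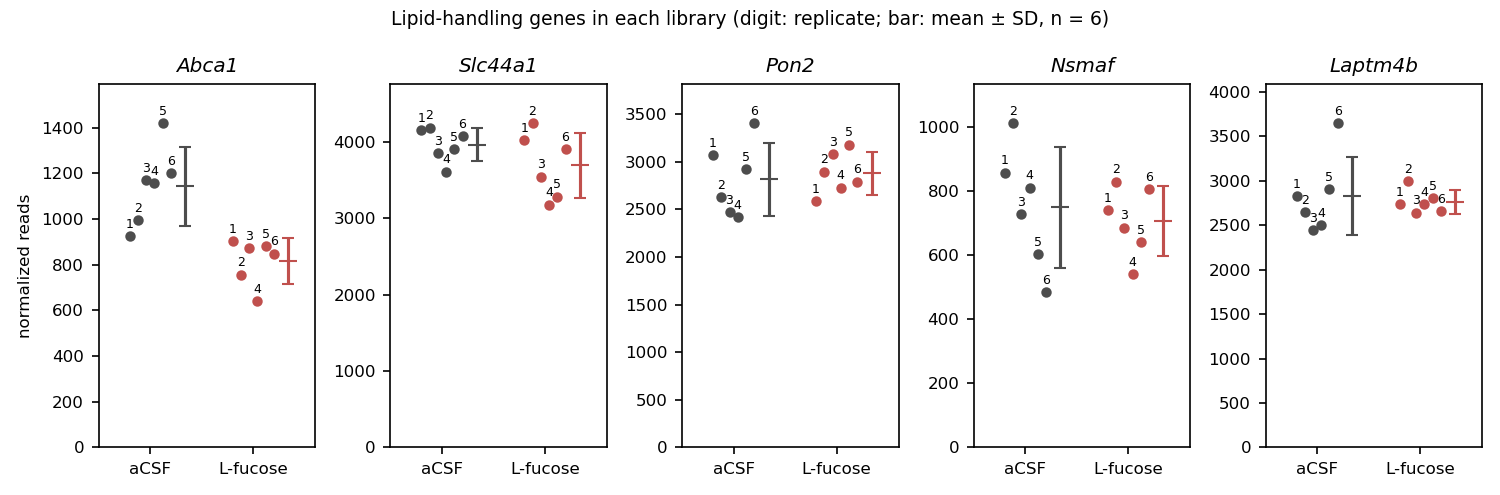
Normalized reads (y axis, from 0) of each gene in the 6 aCSF (grey) and 6 L-fucose (red) libraries, with the replicate number above each point and the mean ± SD beside it. For Abca1 the 6 L-fucose points, 641.0 to 904.2, lie below the 6 aCSF points, 924.7 to 1419, and for the other 4 genes the groups overlap.

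Compared per kb of exon and over the 12 libraries, the mean level was 1443 for Laptm4b, 551.1 for Slc44a1, 388.2 for Pon2, 94.64 for Abca1 and 87.07 for Nsmaf. Laptm4b, at 1263 to 1881, lay above all libraries of the other genes. The ranges of Slc44a1 (457.6 to 610.5) and Pon2 (329.5 to 463.8) overlapped narrowly, and those of Abca1 (61.86 to 136.9) and Nsmaf (57.90 to 121.0) overlapped almost wholly. Abca1 was above Nsmaf in aCSF, at 110.4 against 89.60, and below it in L-fucose, at 78.85 against 84.54. Without aCSF 5 and 6 the aCSF means were 102.4 and 101.9, and Nsmaf was the higher in 2 of 6 aCSF and 4 of 6 L-fucose libraries. These exonic lengths count every annotated isoform, which lowers the level per kb of genes with exons that brain does not use.

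The 5 genes did not share a pattern across libraries. In log2 units from its own mean over the 12 libraries, Abca1 was highest in aCSF 5 at 0.56 and lowest in L-fucose 4 at -0.58. Nsmaf ran from -0.56 in aCSF 6 to 0.50 in aCSF 2, while Laptm4b and Pon2 were both highest in aCSF 6, at 0.39 and 0.26. L-fucose 4 was the lowest library for Abca1 and Slc44a1, at -0.58 and -0.26, and the lowest L-fucose library for Nsmaf, at -0.40. Slc44a1 stayed between -0.26 and 0.15.

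**Figure D4:**
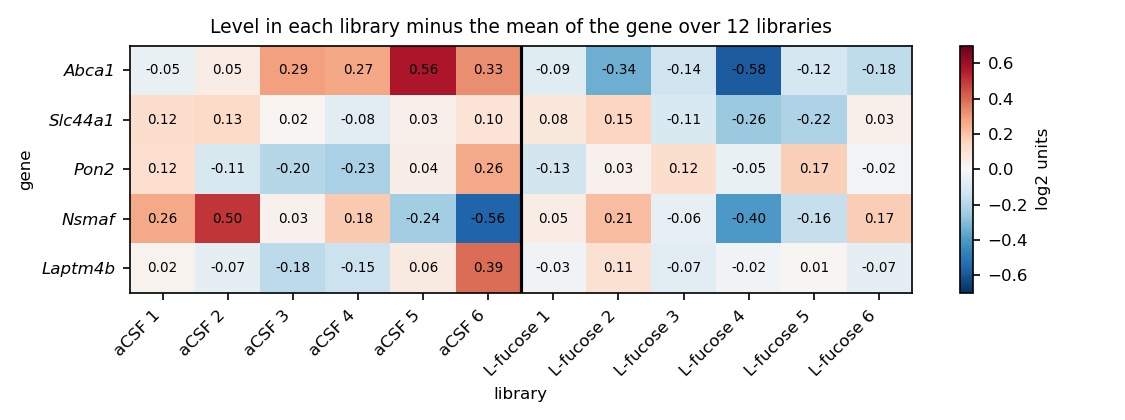
Level of each gene (rows) in each library (columns) as the difference in log2(value + 1) from the mean of that gene over 12 libraries, in colour and in figures, with a line between aCSF and L-fucose. Abca1 is at -0.05 to 0.56 in aCSF and -0.58 to -0.09 in L-fucose, and Nsmaf and Laptm4b part in aCSF 6.

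The tested rows of the 4 regions whose centred values were nearest to those of Abca1 over the 12 libraries were Lingo2, a membrane protein of neurons with leucine-rich repeats, Mtdh and Srsf12, an RNA-splicing factor. Their mean absolute differences from Abca1 were 0.120, 0.141 and 0.149 log2 units, against a median of 0.288 over 286 candidate rows. Lingo2 had 399.1 ± 50.47 in L-fucose and 490.4 ± 74.38 in aCSF, Mtdh 1952 ± 121.0 and 2336 ± 370.5, and Srsf12 517.0 ± 107.8 and 632.3 ± 74.83 (SD, n = 6 each). Likeness to Abca1 selects rows that are lower in L-fucose, so these values are no separate result. The nearest rows to Slc44a1 were Pip4p2, a phosphatidylinositol phosphatase gene, Cttnbp2 and Rragd, at 0.0737, 0.0740 and 0.0783 log2 units against a median of 0.199.

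A list of 22 other lipid genes in the 4 regions was chosen with earlier results of these data known. It is not complete, since it leaves out Pip4p2, whose log2 fold change was 0.02. Of the 22 listed genes 15 were tested, and with limma 0 of these were higher and 0 lower after adjustment. Fold changes were negative in 13 and positive in 2, with a median of -0.17, against 211 negative of the 348 tested rows of the regions (60.6%) and a median of -0.05 there, and 0.01 over all tested rows. Without aCSF 5 and 6, 11 of 14 tested genes were negative, with a median of -0.09, where 53.2% of the tested region rows were negative with a median of -0.02. At an unadjusted p under 0.05 there was 1 of 15, where 8.33% of the rows of the regions and 5.96% of all tested rows have such a p. That count depended on single libraries, with 4 of 15 without aCSF 4, 3 of 15 without L-fucose 1, and 0 without aCSF 5, aCSF 6 or both, as well as without L-fucose 2, 3 or 4. It was 2 of 15 in edgeR and DESeq2.

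That gene was Sdcbp, which overlaps the end of Nsmaf and encodes syntenin, a scaffold that binds phosphoinositides and takes part in exosome release. Sdcbp had 7557, 6947, 7659, 7921, 9446 and 9376 normalized reads in aCSF 1 to 6 and 7331, 6764, 7233, 6154, 7302 and 7658 in L-fucose 1 to 6. The groups overlap, and the highest values were those of aCSF 5 and 6. The log2 fold change was -0.20 with an interval from -0.39 to -0.01 (limma adjusted p 0.827), and -0.09 without these libraries.

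Of the genes for phosphoinositides and membranes, Golph3, a Golgi protein that binds phosphatidylinositol phosphate, had 2912 ± 310.5 in L-fucose and 3473 ± 697.4 in aCSF. Its log2 fold change of -0.24 (interval -0.48 to 0.01) was -0.07 without aCSF 5 and 6, its highest libraries, and 13.8% of its exonic bases are shared with 1810049J17Rik. Cav1 and Cav2, which coat caveolae, were at -0.01 (-0.27 to 0.24) and -0.22 (-0.49 to 0.05). Vps13b, of a family of lipid transfer proteins, was at -0.18 and Mtmr12, an inactive partner of phosphoinositide phosphatases, at -0.05. Plppr1, a neuronal membrane protein related to phospholipid phosphatases, was at 0.15 and Clvs1, a neuronal phosphoinositide-binding protein that shares 30.4% of its exonic bases with Asph, at -0.20. The intervals of these genes included 0. With aCSF 5 and 6 left out, Cav2 was at -0.05, Plppr1 at 0.07, Mtmr12 at -0.10, Vps13b at -0.16, Cav1 at 0.04 and Clvs1 at -0.64, and leaving out single libraries moved Clvs1 between -0.52 and 0.13.

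Of the genes for fatty acids, vitamins and quinones, Decr1, a mitochondrial enzyme of unsaturated fatty acid oxidation, was at -0.08 and Amacr, which prepares branched fatty acids for oxidation, at -0.09. Coq3, a methyltransferase of ubiquinone synthesis, was at -0.04 (-0.28 to 0.21) and Ttpa, the vitamin E carrier, at -0.17. Nipsnap3b, the gene next to Abca1, is on the list with no lipid role given here, and was at -0.21 (-0.49 to 0.08). The intervals of these genes included 0 too. When aCSF 5 and 6 were left out, Decr1 was at -0.0063, Nipsnap3b at -0.11, Amacr at 0.0074, Coq3 at -0.09 and Ttpa at -0.23.

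The 7 genes not tested had few or no reads. Cyp7a1, the rate-limiting enzyme of bile acid synthesis in liver, and Sdr16c6 were at 0 in all 12 libraries. Acnat1, Nipsnap3a and Sdr16c5 were above 0 in 1 library each and Acnat2 in 2. Baat, which conjugates bile acids in liver, had 1.847 to 29.37 normalized reads in aCSF and 0 to 14.17 in L-fucose.

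**Figure D5:**
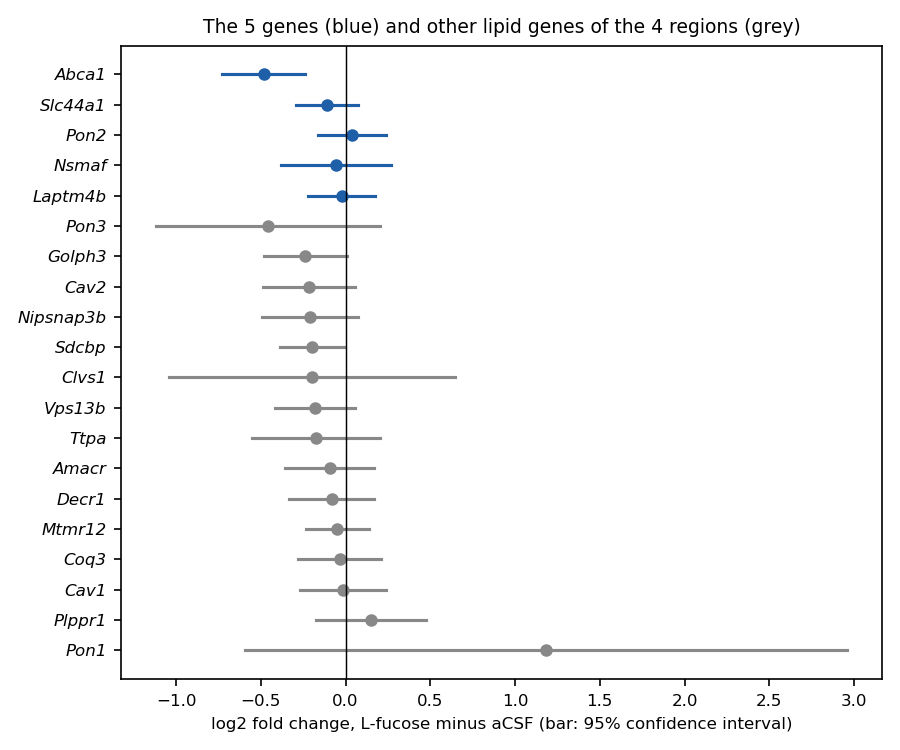
Difference of L-fucose from aCSF in log2(value + 1) (x axis) with its 95% confidence interval from limma, for the 5 genes in blue and the 15 other listed and tested lipid genes of the 4 regions in grey. The intervals of Abca1 and Sdcbp leave out 0, and 0 of the 20 passed after adjustment over 10787 rows.

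Most genes of the wider pathways lie outside the 4 regions, where the name of a row may not tell which transcript was counted. The counts and medians that follow are of rows so named, and may not be those of the genes. Of 27 genes of sterol efflux and lipoprotein transport, 17 were tested, with a median log2 fold change of -0.01 and 3 in the regions. For choline transport and phosphatidylcholine synthesis 8 of 14 were tested (median 0.14), for sphingolipid handling 13 of 24 (median -0.02), and for the LAPTM family 2 of 3 (median 0.19), each with 1 gene in the regions. All 3 paraoxonases were tested and lie in the regions (median 0.04). In each list 0 genes were higher and 0 lower after adjustment in limma, and Abca1, included with its difference known, was the 1 gene of 17 in the sterol list, and of all these lists, with an unadjusted p under 0.05, against 5.96% of all tested rows.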

How the data were processed

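The authors deposited a table of 56923 Ensembl identifiers by 12 libraries. The signal values in it, as deposited by the authors, were made by dividing read counts by a size factor for each library. The values themselves show this, since 100% of them turn into whole reads, to 0.01 reads, on division by what 1 read is worth in that library. Size factors recomputed from these reads by the DESeq2 method differed by a relative 4.27e-06 at most. Per the submitters' processing notes, the tools were Trimmomatic 0.39, HISAT2 2.2.1, featureCounts 2.0.3 and DESeq2 2.11.40.8, with build mm10. The sources used here do not give the annotation release or strand setting.

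Rows were named from GENCODE M21 (GRCm38), which matched 52073 identifiers. The 10787 rows that reached 10 normalized reads in 6 or more libraries were fitted with limma 3.58.1 on log2(value + 1) with an intensity trend and the group as the sole term. Fold changes of low rows on this scale depend on the pseudocount and on libraries at or near 0, and can differ either way from the ratio of the means. P-values are two-sided, with a Benjamini-Hochberg threshold of 0.05 over all tested rows. The fit was tested on simulated data. Alternatives used recovered reads in edgeR 4.0.16, DESeq2 1.42.0 and limma-voom, other pseudocounts, filters and scaling, left-out libraries and a replicate block. Software was R 4.3.3, Python 3.11.15, numpy 2.4.6 and pandas 2.3.3.

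Named were the 5 genes, every other listed lipid gene in the 4 regions, some markers of cell types, and the 3 rows nearest to Abca1 and to Slc44a1. Members, lists of genes and of markers, and the rule for named genes were chosen with earlier results of these data known. Sdcbp, Pon1, Pon3 and the rest of the list are named by that rule, whereas Gabrr2 and Rad23b were named after their values were seen. The counting error covers counting only.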

Additional observations from a re-analysis of the deposited data

Results flagged for a closer look

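Pon1, the paraoxonase of blood lipoproteins, had 39.72 normalized reads in aCSF 2, far from the other aCSF libraries, which lay between 0 and 14.68. This was the 1 group flagged of 54 groups of 6 values examined, and chance alone gives such a library in about 5% of groups. Acnat1, Nipsnap3a and Sdr16c5, each above 0 in only 1 library, were not flagged.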

How the results depend on the processing

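The count of 0 rows past the adjusted threshold was the same in each of the 22 alternatives but DESeq2, which gave 1 row of 29080, Gabrr2. At an unadjusted p under 0.05 there were 643 of 10787 rows, 1054 of 29080 with DESeq2, 1232 of 29235 with no filter, 1177 of 10425 without aCSF 5 and 6, and 426 of 10653 without L-fucose 4. None of the 5 genes passed in any alternative, and Abca1 was negative in all 22, with adjusted p from 0.191 to 0.985. For the 20 tested lipid genes, 419 of 432 recomputed fold changes had the sign of the reported value. Without aCSF 5 and 6, Laptm4b turned to 0.0836, Amacr to 0.00736 and Cav1 to 0.0362. With single libraries left out, values ran from -0.54 to -0.414 for Abca1 and from -0.149 to -0.0656 for Slc44a1. They crossed 0 for Pon2 (-0.00434 to 0.0942), Nsmaf (-0.176 to 0.0362), Laptm4b (-0.0628 to 0.0521), Cav1 (-0.0535 to 0.0544), Clvs1 (-0.524 to 0.134) and Coq3 (-0.074 to 0.0151). The causes were not tested. Pon1, with few reads, ran from 0.185 to 1.5 over the alternatives that tested it, and was not tested in 8 of them. Both groups carry the same replicate numbers, with titles from WT1 to WT6, and the sources used here do not say whether these pair the libraries. Same-numbered libraries had correlations of -0.168 to 0.17 between their deviations from the group means. Such correlations cannot decide whether the design was paired, and the main fit did not use pairing. With the replicate block, limma called 0 rows and gave Abca1 -0.482 at an adjusted p of 0.823.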
